A study of Solanum lycopersicum with 36 samples.

Results

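Intronic circular RNAs (ciRNAs) of the nuclear chromosomes were described in tomato leaf. The members were all entries of the circular RNA table whose name starts with ciRNA and whose chromosome is one of the numbered nuclear chromosomes, which gave 50 of 461 entries. The other 7 entries named ciRNA were on the chloroplast genome, and 404 nuclear entries named circRNA (exonic-type) were used for comparison. Wild-type plants of the cultivar ‘Jinlingmeiyu’ aged 24 days were given combination (water withheld for 3 days, then 38 °C), heat (irrigated, 38 °C), drought (water withheld for 3 days, then 26 °C) or control (irrigated, 26 °C). The labels give 48 h of treatment, whereas the study names an earlier time for the leaves sequenced for small RNA, so the time of sampling for circular RNA is uncertain. Circular RNA was sequenced from leaves in 12 libraries, 3 biological replicates for each of the 4 treatments, and the values are FPKM (fragments per kilobase of circle, scaled to the size of the library). The names came with a chromosome and a sequence but with no position and no host gene, so no gene is named here.

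When an intron is removed from a transcript, its first base is joined to an internal branch point, usually an adenine, and the intron leaves as a lariat. Most lariats are opened by a debranching enzyme and degraded. An intronic circular RNA is what remains when the loop is kept and its tail is trimmed, so that it runs from the 5′ splice site, which nearly always begins with GT, to the branch point. In plants the branch point adenine is often preceded by a T at the base but one before it. In human cells some circles of this kind were found near the transcription sites of their own genes.

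The members opened with the bases of a 5′ splice site. All 50 began with GT, as compared with 84 of 404 exonic-type entries. The class is defined by that start, and the caller that named the entries is not given. The GT may therefore follow from the naming, and it is no separate evidence of origin. The base after GT was A in 37 members, G in 7, T in 5 and C in 1, and 8 members began with GTAAG. The last base was A in 30 members, T in 15, G in 4 and C in 1, whereas it was G in 343 of 404 exonic-type entries, of which 256 ended in AG. No member ended in AG. The letters CTNA (N is any base, searched on the printed strand only) closed 13 members (26%) and none of the exonic-type entries, while CTNA made up 1.91% of all 4-base windows in the members and 1.64% of those in exonic-type entries. The shorter TNA closed 19 members, and 1 exonic-type entry. Only 30 of the 404 exonic-type entries ended in A, so few of them could close with CTNA or TNA. CTNA was not part of the plan. These matches describe letters only, and branch points were not measured.

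The join of the 16 members that were above 0 in at least 3 libraries is shown, since these carried most of the values. Each line has the last 12 bases of the circle followed by its first 12 bases, as DNA letters from the deposited table. Capitals mark the opening GT and, where present, a closing CTNA.
ciRNA54: ctgtttggatctGTctgttgcagg
ciRNA32: agcttttgataaGTgagtcaaaat
ciRNA21: atgagatgCTTAGTagatttttgt
ciRNA9: aggattcaCTTAGTagctcctttt
ciRNA47: agatgttgCTCAGTaagcaatcct
ciRNA33: actttctctaaaGTttgcagactc
ciRNA3: gcaacgcaagtgGTattgatcaac
ciRNA35: tatttcctaataGTaagtgacatt
ciRNA11: tatattcccctaGTaatcatcttt
ciRNA40: atacctttaactGTaagagtcttg
ciRNA37: gagtatatgctaGTaggatatttg
ciRNA51: tggattgtgacaGTaatttctctg
ciRNA4: gacagttgagctGTaatttctctg
ciRNA52: ggtgaatgCTCAGTattttttgac
ciRNA8: attggtaccccaGTatgcactaat
ciRNA27: aacaatttCTCAGTgattatagaa
Of these 16 members, 5 closed with CTNA (ciRNA21, ciRNA9, ciRNA47, ciRNA52 and ciRNA27) and 12 with A. Among the 34 members above 0 in 1 or 2 libraries, 8 closed with CTNA and 18 with A.

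The members on which the comparisons turned are shown whole, with the same capitals.
ciRNA9: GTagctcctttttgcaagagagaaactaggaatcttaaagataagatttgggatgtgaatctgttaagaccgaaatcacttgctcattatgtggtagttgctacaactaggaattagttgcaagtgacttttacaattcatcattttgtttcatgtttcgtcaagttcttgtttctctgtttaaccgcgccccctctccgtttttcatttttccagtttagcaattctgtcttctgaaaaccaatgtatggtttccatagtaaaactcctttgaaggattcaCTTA
ciRNA21: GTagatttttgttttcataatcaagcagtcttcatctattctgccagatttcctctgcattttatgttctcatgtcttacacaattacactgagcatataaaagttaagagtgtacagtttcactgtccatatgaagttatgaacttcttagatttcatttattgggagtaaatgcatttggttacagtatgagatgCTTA
ciRNA37: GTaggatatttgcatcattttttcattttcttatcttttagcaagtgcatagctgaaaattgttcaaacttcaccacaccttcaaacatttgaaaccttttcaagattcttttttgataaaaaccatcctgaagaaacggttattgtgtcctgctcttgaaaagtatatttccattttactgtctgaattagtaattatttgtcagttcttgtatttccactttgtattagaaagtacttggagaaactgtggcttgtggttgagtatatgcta
ciRNA54: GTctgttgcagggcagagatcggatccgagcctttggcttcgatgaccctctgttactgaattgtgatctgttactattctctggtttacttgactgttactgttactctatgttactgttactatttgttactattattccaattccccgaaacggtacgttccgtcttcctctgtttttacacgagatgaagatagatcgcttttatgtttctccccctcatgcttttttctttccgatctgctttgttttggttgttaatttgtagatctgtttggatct
ciRNA3: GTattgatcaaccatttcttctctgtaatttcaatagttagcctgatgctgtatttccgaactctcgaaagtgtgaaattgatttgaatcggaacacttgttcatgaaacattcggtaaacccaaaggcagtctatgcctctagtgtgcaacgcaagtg
The first and the last of these lines differ in their ends, since ciRNA9 closes with CTTA and ciRNA3 with a G. The circle of ciRNA54, which had the highest level, opens with GTC and closes with T. It was the only member with C after GT.

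The members were short and rich in T. Their length was 151 to 1151 nt with a median of 283.5 nt, as compared with 98 to 1695 nt and a median of 362.5 nt in exonic-type entries. The shortest was ciRNA53 (chromosome 1, 151 nt) and the longest ciRNA18 (chromosome 4, 1151 nt), each above 0 in 1 library. Of the 50 members, 13 were under 200 nt, 26 had 200 to 400 nt and 8 were over 500 nt. Their median GC content was 33.99% (range 30.19% to 43.0%), as compared with 42.73% (33.81% to 51.14%) in exonic-type entries, and their median share of T was 38.43%, as compared with 27.71%. Plant introns are known for being rich in T and A. No test was made of these differences, because the members are a fixed set.

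**Figure D1:**
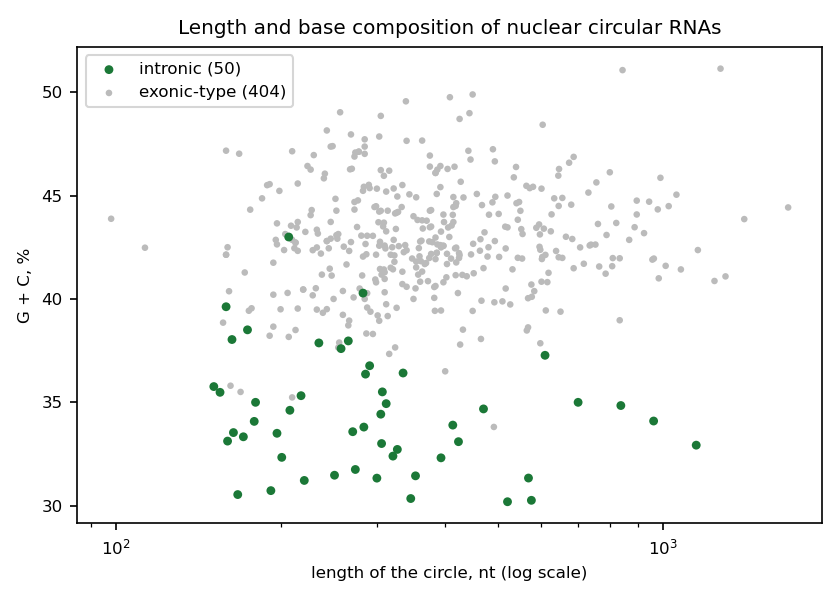
Length of each circle in nt (horizontal, log scale) against its G and C content in % (vertical) for the 50 intronic members (green) and the 404 exonic-type entries (grey) of the nuclear chromosomes. Most green points lie between 30.19% and 40%, below the bulk of the grey points, whose median is 42.73%.

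All 12 nuclear chromosomes held members. Chromosome 1 had 9, chromosomes 3 and 8 had 6 each, chromosomes 4, 5 and 10 had 5 each, chromosome 2 had 4, chromosome 7 had 3, chromosomes 6, 11 and 12 had 2 each and chromosome 9 had 1. As a share of the nuclear entries of a chromosome, members made up between 4.35% (chromosome 9) and 16.7% (chromosome 10). The level was less even than the number. Summed over members and over the 12 libraries, chromosome 1 held 352.8 FPKM, chromosome 3 held 82.4 FPKM and no other chromosome more than 39.0 FPKM. The highest members by mean, ciRNA54, ciRNA21 and ciRNA9, all lie on chromosome 1. They held 34.2%, 9.50% and 9.29% of the FPKM of all members, so the unevenness rests mainly on few circles.

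Most members were above 0 in few libraries. Of 600 member values, 136 (22.7%) were above 0. A single library held 20 members, 2 libraries held 14 members and at least 3 libraries held 16 members (32%), while 75.5% of the exonic-type entries reached at least 3 libraries. No member was in exactly 3 libraries, 10 were in 4 libraries, 5 in 5 to 9 libraries and 1, ciRNA54, in all 12. The highest member just outside the test, with 2 libraries, was ciRNA1 (mean 2.48 FPKM), and the lowest just inside it was ciRNA27 (4 libraries, mean 0.344 FPKM). By treatment, 31 members were above 0 in at least 1 library at combination, 18 at heat, 28 at drought and 19 at control. Of these, 10 were found at combination alone, 2 at heat, 8 at drought and 3 at control alone. Among the 404 exonic-type entries the counts were 25, 15, 13 and 8. The 20 members in a single library can only be at 1 treatment and 1 temperature. No member was above 0 in all 3 libraries of 1 treatment and at 0 elsewhere. By temperature, 16 members (32%) were listed only at 38 °C, 14 (28%) only at 26 °C and 20 (40%) at both. In exonic-type entries the shares were 15.8%, 5.94% and 78.2%. The number of member values above 0 was 68 at 38 °C and 68 at 26 °C.

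**Figure D2:**
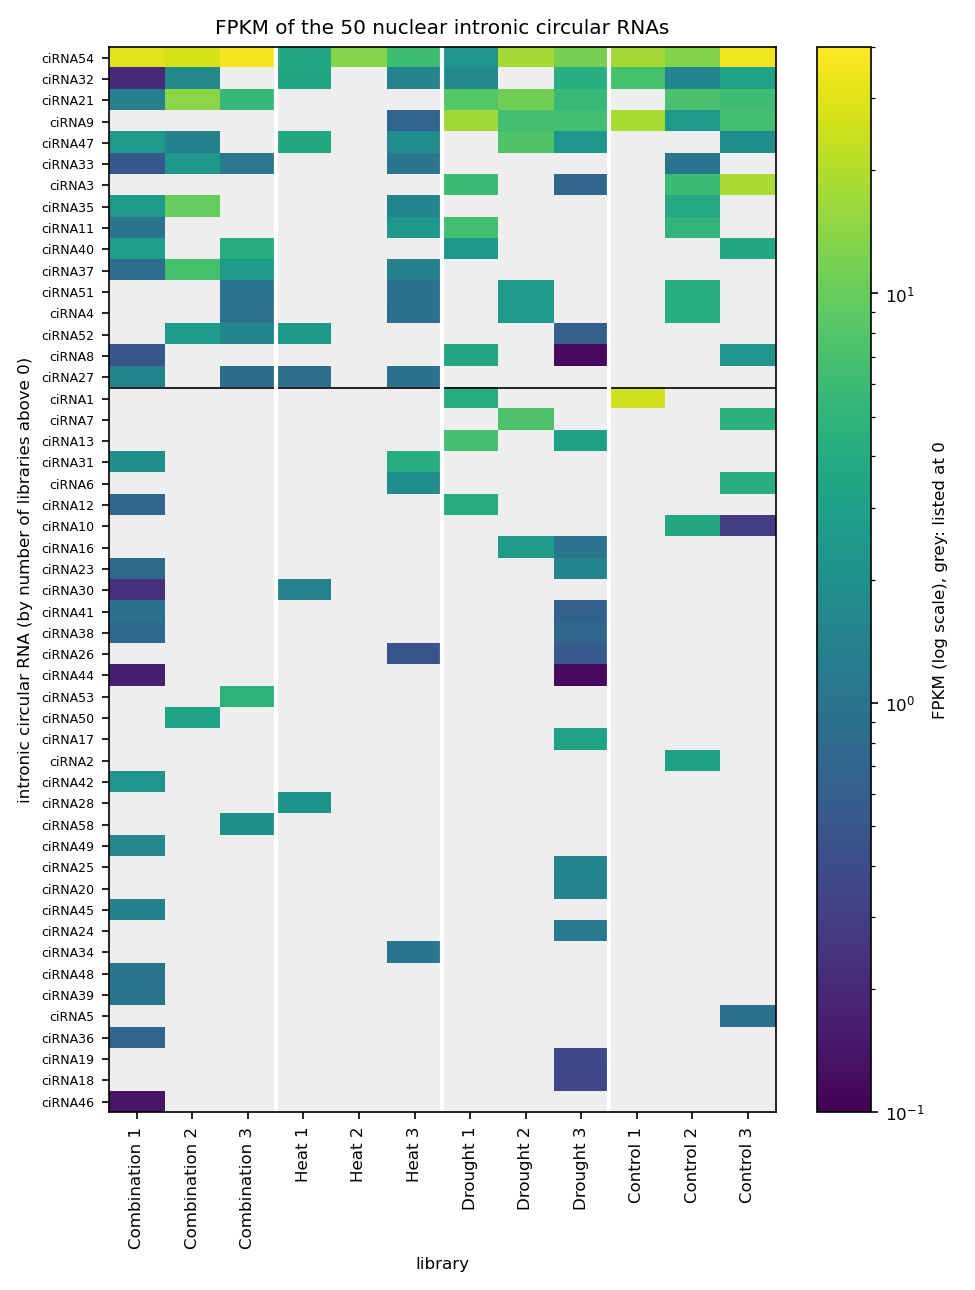
FPKM (colour, log scale, grey where listed at 0) of the 50 members (down the page, by the number of libraries above 0) in the 12 libraries (across, by treatment). The line separates the 16 members in at least 3 libraries from the 34 in fewer, and ciRNA54 is the only one filled in every library.

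The number of members in a library varied widely within treatments. It was 25, 9 and 11 at combination, 7, 1 and 15 at heat, 11, 8 and 21 at drought and 4, 12 and 12 at control (replicates 1, 2 and 3). Combination replicate 1 and drought replicate 3 had the highest numbers and heat replicate 2 the lowest, and the 4 treatments overlapped. The exonic-type entries ran from 71 in control replicate 1 to 293 in combination replicate 1, and drought replicate 3 with 248 was again next to the top. Of the 20 members in a single library, 13 were in one of these 2 libraries (7 in combination replicate 1 and 6 in drought replicate 3), and 17 members were listed in no library but these.

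**Figure D3:**
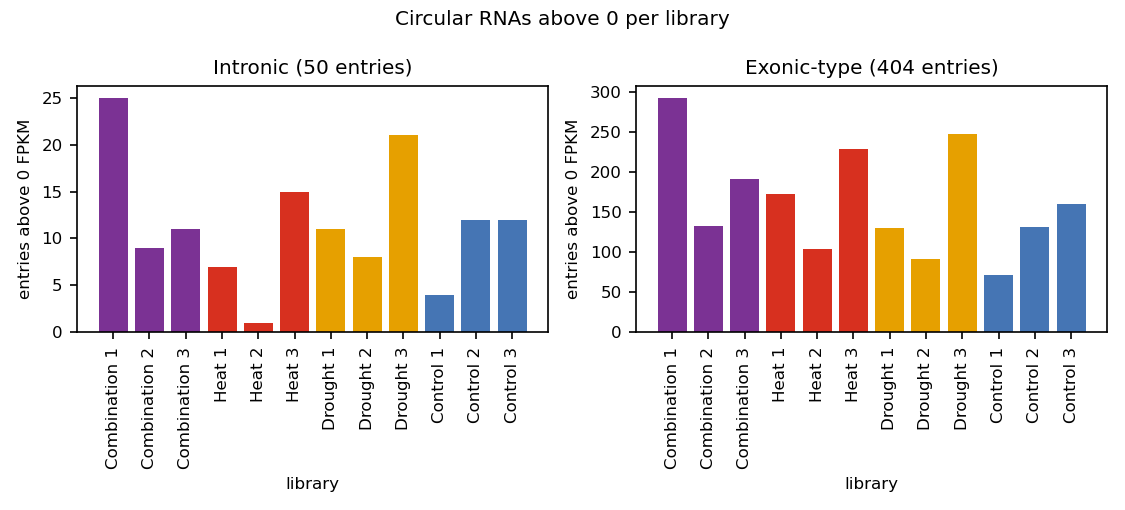
Number of entries above 0 FPKM in each of the 12 libraries for the 50 intronic members (left) and the 404 exonic-type entries (right), with bars coloured by treatment. Combination replicate 1 is highest in both panels (25 and 293), while the lowest bar is heat replicate 2 on the left (1) and control replicate 1 on the right (71).

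The lowest member values differed between libraries, each being the lowest among the 1 to 25 members listed there. In each library FPKM multiplied by the length of the circle fell on steps, and 1 step was taken as 1 read equivalent (84.8% to 93.3% of all values of a library were whole steps within 0.01, and 97.1% of the member values). The size of the step differed between libraries and was smallest in control replicate 3. There 34.8 FPKM of ciRNA54 was 556 read equivalents, while in combination replicate 3 its 36.5 FPKM was 239. Read equivalents, and a limit of 10, therefore do not stand for the same FPKM in each library. The lowest member value was 2, 11 and 6 read equivalents in the combination libraries, 9, 133 and 4 in the heat libraries, 17, 14.5 and 1 in the drought libraries and 91, 13 and 4 in the control libraries. Values under 10 read equivalents numbered 37 of 136, of which 17 were in combination replicate 1 and 10 in drought replicate 3. In 5 libraries the lowest member value was 13 or more. The exonic-type entries reached 1 read equivalent or less in all 12 libraries. Of their values, 51.9% in heat replicate 2 and 29.6% in control replicate 1 were under 10 read equivalents. The lowest member value therefore depends on which members are listed and is not the detection limit of a library. The part of the unequal lowest member values in the differences between treatments was not tested, apart from setting all values under 10 read equivalents to 0.

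**Figure D4:**
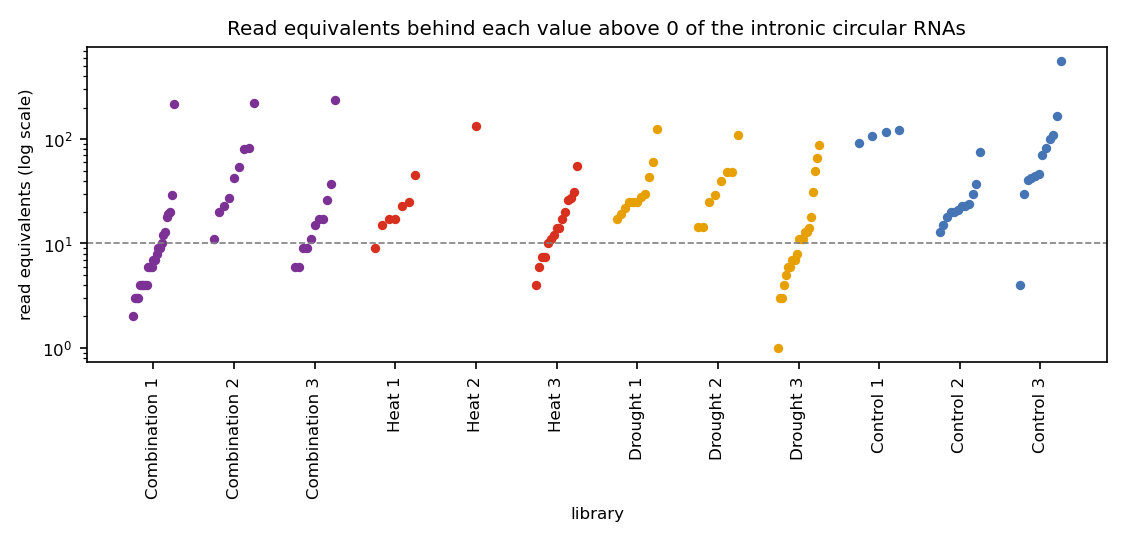
Read equivalents (log scale) of every member value above 0 in the 12 libraries, 1 point per member, coloured by treatment, with a dashed line at 10. Points under the line gather in combination replicate 1 (17 points) and drought replicate 3 (10 points), and heat replicate 2 has a single point at 133.

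The summed level of the members was lowest at heat. It was 58.0, 70.2 and 61.2 FPKM in the combination libraries, 17.8, 13.5 and 26.8 FPKM in the heat libraries, 63.1, 58.4 and 48.0 FPKM in the drought libraries and 69.0, 55.6 and 87.5 FPKM in the control libraries. Every heat library lay below all others, and the other treatments overlapped in part. Without ciRNA54 the sums were 28.1, 42.4 and 24.7 FPKM at combination, 14.2, 0 and 20.6 FPKM at heat, 60.8, 40.5 and 36.3 FPKM at drought and 51.1, 42.8 and 52.7 FPKM at control. As a share of the nuclear FPKM of a library, heat was not set apart from drought. Members made up 7.67%, 12.4% and 10.6% in the combination libraries, 3.22%, 3.19% and 3.62% in the heat libraries, 4.63%, 3.09% and 2.76% in the drought libraries and 6.85%, 8.03% and 10.8% in the control libraries, so heat and drought overlapped and both lay below combination and control. Nuclear entries in turn made up 7.69% to 34.5% of all FPKM listed, the rest being chloroplast. A few members held most of the level, with 34.2% of the FPKM over 12 libraries in ciRNA54, 9.50% in ciRNA21 and 9.29% in ciRNA9.

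The clearest difference between treatments was in ciRNA9 (chromosome 1, 286 nt), which fell at 38 °C. It was listed at 0 in all 3 combination libraries, at 0, 0 and 0.667 FPKM in the heat libraries, at 17.1, 6.46 and 6.49 FPKM in the drought libraries and at 18.5, 2.54 and 6.76 FPKM in the control libraries. The 6 libraries at 38 °C lay below all 6 at 26 °C, with a mean of 0.111 ± 0.272 FPKM at 38 °C and 9.63 ± 6.51 FPKM at 26 °C (SD, n = 6 each). For 38 °C vs 26 °C the log2FC was −8.02 (SE 1.83) with an adjusted p = 0.000832 from limma, on the scale log2(FPKM + 0.0161). Since most values at 38 °C are 0, the size of the log2FC depends on that small addition (−3.05 with 1 in its place). The SE and p rest mainly on limma's trend over all entries, and do not measure the spread of ciRNA9 over its own libraries. Over all entries tested, 9 of 328 (2.74%) were called in this comparison, 4 higher and 5 lower (1.52% lower), and ciRNA9 was the only one of the 16 members tested. Groups that do not overlap were found in 2.74% of all entries tested and in ciRNA9 alone among the members. The values at 26 °C rested on 15 to 126 read equivalents, and the single heat value on 6. In the libraries with ciRNA9 at 0, the lowest member value was 2, 11 and 6 read equivalents at combination and 9 and 133 in heat replicates 1 and 2. These are not detection limits. The lowest exonic-type value was 1, 0.5 and 1 read equivalents at combination and 1 and 0.5 in heat replicates 1 and 2. The part of library depth in these values at 0 was not tested.

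As compared with drought, ciRNA9 was also lower at combination. The log2FC was −9.12 (SE 2.59) with an adjusted p = 0.0293 from limma, and 5 of 328 entries (1.52%) were called. This call was lost when any 1 of the combination or drought libraries was left out (adjusted p = 0.0663 to 0.326), and when libraries were scaled to the same nuclear sum (0.0699) or values under 10 read equivalents were set to 0 (0.0960). As compared with control, the log2FC was −8.73 (SE 2.59, adjusted p = 0.0637) at combination and −6.93 (SE 2.59, adjusted p = 0.236) at heat, neither of them called. The comparisons at combination share the same 3 libraries at 0, so they are not independent of each other. Between drought and control ciRNA9 overlapped in level.

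The second highest member by mean, ciRNA21 (chromosome 1, 201 nt), was listed at 0 only at heat and in 1 control library. It had 1.37, 14.2 and 5.59 FPKM in the combination libraries, 0, 0 and 0 FPKM in the heat libraries, 8.28, 11.0 and 5.84 FPKM in the drought libraries and 0, 7.21 and 6.26 FPKM in the control libraries. Every library without water was above 0, at 7 read equivalents or more, and 4 of the 6 irrigated libraries were at 0. For combination vs heat the groups did not overlap, as for 30 of 328 entries (9.15%), and limma gave a log2FC of 8.22 (SE 2.33) with an adjusted p = 0.0714, so ciRNA21 was not called. For water withheld vs irrigated the adjusted p was 0.0927, and for heat vs control it was 0.353. Without control replicate 1, whose 4 members were ciRNA1, ciRNA9, ciRNA32 and ciRNA54, ciRNA21 was called for heat vs control (adjusted p = 0.00455 from limma) and for combination vs heat (0.00961), while for water withheld vs irrigated its adjusted p was then 0.520. Over all alternatives the adjusted p ran from 0.00961 to 0.773 for combination vs heat, with 0.728 without combination replicate 2, and from 0.0513 to 0.763 for water withheld vs irrigated.

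A few members were above 0 mainly or only at 38 °C, and none of them was called. Of these, ciRNA37 (chromosome 7, 274 nt) had 0.864, 7.02 and 2.68 FPKM in the combination libraries, 0, 0 and 1.39 FPKM in the heat libraries and 0 in all 6 libraries at 26 °C. The combination libraries lay above every other library but 1, since heat replicate 3 with 1.39 FPKM exceeded combination replicate 1. Limma gave an adjusted p = 0.310 for combination vs control, 0.272 for combination vs drought and 0.263 for 38 °C vs 26 °C. A longer circle, ciRNA27 (chromosome 6, 470 nt), was listed at 1.51, 0 and 0.828 FPKM at combination, at 0.847, 0 and 0.948 FPKM at heat and at 0 in all libraries at 26 °C, from 9 to 18 read equivalents (adjusted p = 0.344 for 38 °C vs 26 °C). For ciRNA33 (chromosome 2, 609 nt) the values were 0.518, 2.46 and 1.06 FPKM at combination, 0, 0 and 1.04 FPKM at heat, 0 in the 3 drought libraries and 0, 1.03 and 0 FPKM at control. Its combination libraries lay above all drought libraries, with an adjusted p = 0.590.

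The reverse pattern was seen in ciRNA3 (chromosome 3, 159 nt). It was listed at 0 in all 6 libraries at 38 °C, at 6.09, 0 and 0.715 FPKM in the drought libraries and at 0, 6.08 and 18.7 FPKM in the control libraries. The value of 18.7 FPKM rested on 168 read equivalents and that of 0.715 FPKM on 3. The first was in control replicate 3, which had the smallest step per read equivalent. For 38 °C vs 26 °C it had the second smallest p among the members (adjusted p = 0.175 from limma) and was not called.

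The most abundant member, ciRNA54 (chromosome 1, 283 nt), was also the only one without a library at 0. It had 29.96, 27.8 and 36.5 FPKM in the combination libraries, 3.596, 13.5 and 6.18 FPKM in the heat libraries, 2.33, 18.0 and 11.6 FPKM in the drought libraries and 17.9, 12.8 and 34.8 FPKM in the control libraries. The combination libraries lay above all heat and all drought libraries and overlapped with control, where replicate 3 reached 34.8 FPKM. Its mean was 31.4 ± 4.53 FPKM at combination and 7.77 ± 5.16 FPKM at heat (SD, n = 3 each), with a log2FC of 2.22 (SE 1.08) and an adjusted p = 0.844 from limma, so the difference was not called. It made up 49.8% of the FPKM of the members at combination, 40.1% at heat, 18.8% at drought and 30.9% at control.

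**Figure D5:**
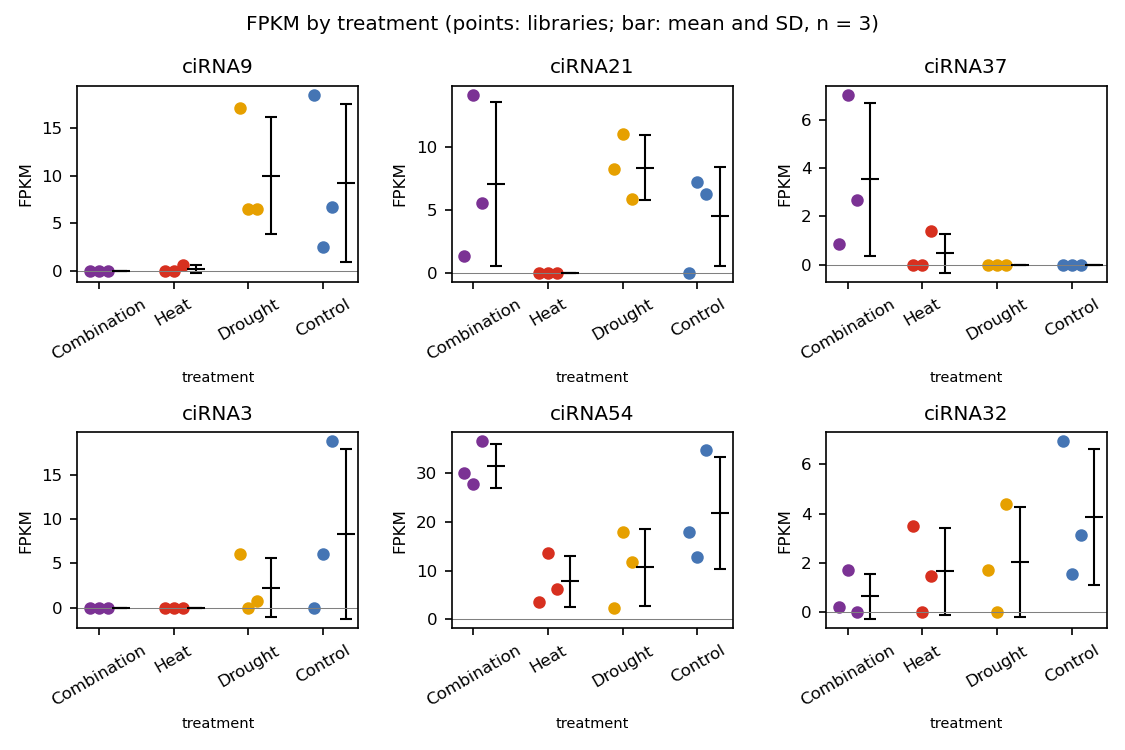
FPKM of 6 members (panels) at combination, heat, drought and control, with a point for each library and the mean ± SD of 3 libraries beside the points. The 38 °C libraries of ciRNA9 lie at 0 to 0.667 FPKM, below the lowest 26 °C value of 2.54 FPKM, ciRNA21 is at 0 in all heat libraries, and ciRNA54 at combination lies at 27.8 to 36.5 FPKM.

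Other members in several libraries showed no separation between treatments. In ciRNA32 (chromosome 2, 568 nt) the values were 0.208, 1.69 and 0 FPKM at combination, 3.51, 0 and 1.46 FPKM at heat, 1.70, 0 and 4.40 FPKM at drought and 6.94, 1.53 and 3.12 FPKM at control. In ciRNA47 (chromosome 11, 291 nt) they were 2.57, 1.35 and 0 FPKM at combination, 3.80, 0 and 1.86 FPKM at heat, 0, 7.62 and 2.34 FPKM at drought and 0, 0 and 1.83 FPKM at control. Each had a library at 0 in at least 3 of the 4 treatments. Of the remaining members among the 10 highest by mean, ciRNA35 (chromosome 8) reached 9.74 FPKM in combination replicate 2, ciRNA11 (chromosome 3) 6.58 FPKM in drought replicate 1 and ciRNA40 (chromosome 5) 4.07 FPKM in combination replicate 3, each in 4 libraries of at least 3 treatments. Also in 4 libraries, ciRNA52 (chromosome 2) reached 2.67 FPKM and ciRNA8 (chromosome 1) 3.62 FPKM. The fifth by mean, ciRNA1 (chromosome 12, 180 nt), was above 0 in 2 libraries and was not tested, with 25.7 FPKM in control replicate 1 and 4.09 FPKM in drought replicate 1, from 107 and 19 read equivalents.

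A pair of members shared their sequence and their reads. The 258 bases of ciRNA51 are the first 258 of the 266 bases of ciRNA4 (chromosome 3), so both begin at the same GT and end 8 bases apart, as shown here from the deposited sequences.
ciRNA51: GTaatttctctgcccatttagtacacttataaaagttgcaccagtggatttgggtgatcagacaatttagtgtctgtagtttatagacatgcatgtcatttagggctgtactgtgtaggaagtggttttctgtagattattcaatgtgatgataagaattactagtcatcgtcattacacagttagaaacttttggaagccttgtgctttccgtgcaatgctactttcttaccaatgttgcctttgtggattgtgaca
ciRNA4: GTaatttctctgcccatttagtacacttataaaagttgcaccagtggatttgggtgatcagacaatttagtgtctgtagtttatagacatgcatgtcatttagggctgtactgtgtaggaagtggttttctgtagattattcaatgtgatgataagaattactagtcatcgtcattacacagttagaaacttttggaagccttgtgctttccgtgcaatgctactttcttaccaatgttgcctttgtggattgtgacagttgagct
The shorter circle ends with A and the longer with T. Their read equivalents were equal in every library in which they were listed, at 6 in combination replicate 3, 7.5 in heat replicate 3, 14.5 in drought replicate 2 and 23 in control replicate 2. They gave the 4 member values that were not whole. The levels of ciRNA51 were 1.01, 0.925, 2.60 and 4.31 FPKM in these libraries and those of ciRNA4 were 0.975, 0.897, 2.52 and 4.18 FPKM, so the 2 values differ by length alone and cannot be told apart as separate measurements. No other member shared a stretch of 40 bases with any entry of the table, on either strand.

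Most members in 1 or 2 libraries were low, with exceptions such as ciRNA1 (25.7 FPKM). The 20 in a single library had their highest value between 0.137 FPKM (ciRNA46, 2 read equivalents in combination replicate 1) and 4.87 FPKM (ciRNA53, combination replicate 3), with a median of 1.43 FPKM and 11 read equivalents. In the 14 with 2 libraries the highest value ran from 0.164 to 25.7 FPKM, with a median of 3.29 FPKM and 21 read equivalents, and ciRNA1, ciRNA7 (7.49 FPKM) and ciRNA13 (6.78 FPKM) were above the median of the members in more libraries. That median was 6.76 FPKM and 57 read equivalents in the 16 members with at least 3 libraries. Of the 14, only 3 had both libraries in the same treatment, which were ciRNA10 (control, 3.85 and 0.283 FPKM), ciRNA13 (drought, 6.78 and 3.08 FPKM) and ciRNA16 (drought, 2.73 and 0.985 FPKM).

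Across the 7 comparisons few members passed the test, and few entries of any kind. For drought vs control none of the 16 members was called by limma and none had an unadjusted p under 0.05, with 1 of 328 entries called (0.305%) and 3.66% at an unadjusted p under 0.05. For heat vs control no member was called, 3 had an unadjusted p under 0.05 (9.15% of all entries did), and 1.22% of all entries were called. For combination vs control no member was called, 3 had an unadjusted p under 0.05 (8.23% of all entries), and 0.915% of all entries were called. For combination vs heat no member was called, 2 had an unadjusted p under 0.05 (4.88% of all entries), and 0.305% were called. For water withheld vs irrigated no member was called, 1 had an unadjusted p under 0.05 (4.27% of all entries), and 0.305% were called. For combination vs drought 3 members had an unadjusted p under 0.05 (7.32% of all entries), and for 38 °C vs 26 °C 5 members did (13.1% of all entries). Groups that did not overlap were found in 4 members for combination vs drought (ciRNA33, ciRNA37, ciRNA54 and ciRNA9; 13.1% of all entries), in 2 for combination vs control (ciRNA37 and ciRNA9; 10.7%), in 2 for combination vs heat (ciRNA21 and ciRNA54; 9.15%), in 1 for heat vs control (ciRNA9; 9.45%) and in none for drought vs control (4.88%) or water withheld vs irrigated (0%). The median log2FC of the 16 members was 1.47 for combination vs control, as compared with 1.66 over all 328 entries, and −0.73 for heat vs control, as compared with 0.43. For drought vs control it was −0.10 and over all entries 0.35, for combination vs drought −0.45 and 0.55, for combination vs heat 0.93 and 0.58, for 38 °C vs 26 °C −0.26 and 0.69, and for water withheld vs irrigated 0.40 and 0.68. For 38 °C vs 26 °C 8 members were higher and 8 lower, while 63.1% of all entries were higher. Both ciRNA4 and ciRNA51, which had equal read equivalents, are counted among the 16 members and among the 8 lower. The member medians for heat vs control and for combination vs drought lie on this pair.

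Detection alone gave no call, and could hardly have given one. By Fisher's exact test of the number of libraries above 0 (6 at 38 °C and 6 at 26 °C, two-sided, adjusted over 461 entries) no member and no other entry passed. With 6 libraries on each side, even an entry split fully between the temperatures could not pass this adjustment alone. Many such entries would be needed, so the lack of a call says little about any member. At an unadjusted p under 0.05 there was 1 of 50 members, ciRNA9, with 1 of 6 libraries at 38 °C and 6 of 6 at 26 °C (exact p = 0.0152, adjusted p = 1), and 1.3% of all entries. For ciRNA37, with 4 of 6 libraries at 38 °C and 0 of 6 at 26 °C, the exact p was 0.0606 (adjusted p = 1).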

How the data were processed

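Circular RNA of tomato leaf was given by the authors as 1 table of FPKM, with a chromosome and a sequence per entry and 12 columns of libraries. The table has 467 lines, 6 of them empty of values. Submitters listed cutadapt, FastQC, Bowtie2, TopHat and TopHat2, with neither role nor version. The caller, the genome build and the FPKM formula are not given in the sources used here, and the study's methods do not describe this assay. Libraries were grouped by treatment from their labels. Members and lists were chosen with earlier results of these data known. The plan grouped host genes by keyword, which could not be done without host genes.

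Levels were tested as log2(FPKM + 0.0161), the smallest value above 0, over 328 entries (16 members) with 3 or more libraries above 0, with limma 3.58.1 in R 4.3.3, 1 mean per treatment, a mean-variance trend, two-sided, and Benjamini-Hochberg adjustment over all entries at 0.05. For entries with values at 0 the size of such a log2FC depends on the addition and can exceed the ratio of the means, while for low entries above 0 it understates the change. The SE and p of an entry rest mainly on the trend over all entries, rather than on its own spread over the libraries. The step of a library was the largest multiple, up to 6, of its smallest product of FPKM and length of which at least 80% of its products were whole multiples. Read totals are unknown, so the precision of single values is given by read equivalents only.

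Named with values are members called, the 10 highest by mean, members in all libraries, the shortest and longest, those sharing sequence and those at the limit of the filter. Members above 0 in every library of 1 treatment or 1 temperature and at 0 elsewhere were also planned, but there were none. Members with an unadjusted p under 0.05 and all others named were picked with values in view. The alternatives tried were other additions (0.1 and 1), no filter, at least 6 libraries, a common nuclear sum, only the groups compared, a replicate block, no trend, each library left out and, for detection, 0.1 FPKM as the limit. Setting values under 10 read equivalents to 0 was added after the data were seen. Tests were tried on simulated data. Those for limma were drawn from a normal distribution on the log scale, with no values set to 0. They therefore say little about entries listed mostly at 0, as most members are. Python 3.11.15, pandas 2.3.3, numpy 2.4.6, scipy 1.17.1 and matplotlib 3.10.9 were used.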

Additional observations from a re-analysis of the deposited data

Results flagged for a closer look

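Among the 6 libraries at 38 °C, ciRNA9 was above 0 only in heat replicate 3 (0.667 FPKM, 6 read equivalents), which therefore stood far from the other 5, all at 0. Any member above 0 in 1 of these 6 libraries would carry the same mark, so the usual chance rate of 1 in 20 groups does not hold for it, and it says no more than that. In limma's interaction test of drought by temperature no member of 16 passed (lowest adjusted p = 1.00), and 1 had an unadjusted p under 0.05 (ciRNA54).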

How the results depend on the processing

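The fall of ciRNA9 for 38 °C vs 26 °C was called under all 20 alternatives (adjusted p = 4.65e-05 to 0.0111 from limma). Counts of members called that moved by over 1.5 times were as follows. For combination vs control the count was 0 in the fit reported and 1 with 0.1 added, with 1 added, with at least 6 libraries, with the replicate block and with no trend, each time ciRNA9, and 2 with only the groups compared (ciRNA9 and ciRNA37). For combination vs drought it was 1 and fell to 0 with the common nuclear sum and with values under 10 read equivalents set to 0. For combination vs heat it was 0, and 1 (ciRNA21) with the common nuclear sum and with the replicate block. With each library left out the count was 0 to 1 for combination vs heat, for heat vs control (1 without control replicate 1, ciRNA21), for combination vs control (1 without heat replicate 1 or 2, ciRNA9) and for combination vs drought, 1 to 2 for 38 °C vs 26 °C (2 without control replicate 1, with ciRNA21), and 0 for drought vs control, water withheld vs irrigated and the test of detection. The causes were not tested beyond the smaller groups this leaves. The test of detection could hardly give a call with so few libraries, so its count of 0 shows little. Replicate numbers were not treated as pairs in the fit reported. Of 18 pairs of libraries with the same number, 2 correlated over 0.1 in their deviations from the treatment means (median r = 0.0038), as did 3 of 36 with different numbers. Since many values are 0, which weakens such correlations, they cannot exclude a pairing. With the replicate block limma gave an adjusted p = 0.0382 for ciRNA9 (combination vs control) and 0.0391 for ciRNA21 (combination vs heat). No result changed its direction. With a common nuclear sum the median log2FC of all entries was 1.41 for combination vs drought, 1.90 for combination vs control, 0.77 for heat vs control, 1.04 for 38 °C vs 26 °C, 0.46 for water withheld vs irrigated, 0.49 for combination vs heat and 0 for drought vs control.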
